A study of Mus musculus with 7 samples.

Results

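Xcl1 and its receptor gene Xcr1 were followed across all cells of 7 single-cell libraries of mouse atypical teratoid rhabdoid tumour. The 2 genes were taken by name from the 19415 genes listed over all libraries. Xcl1 was listed in 6 of 7 libraries and Xcr1 in 5 of 7, and a gene that a library did not list counted 0 there. Cell types were set by gates on marker genes that use neither Xcl1 nor Xcr1, so neither gene was used to choose the cells. Their levels are not fully independent of the gates, which use genes with similar levels, such as Gzma, Clec9a and Gcsam. Barcodes that passed both the T and the NK gate were kept out of the NK and CD8 T gates. The NK gate needed 2 of 12 genes such as Ncr1, Klrb1c and Gzma and no T cell gate, the T gate 2 of 5 genes of the CD3 complex and its signalling, split by Cd8a or Cd8b1, Cd4 and Foxp3, and the cDC1 gate 2 of 11 genes such as Clec9a, Wdfy4 and Gcsam together with MHC class II genes.

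Xcl1 encodes the chemokine XCL1 (lymphotactin), which is secreted by natural killer (NK) cells and activated CD8 T cells. Its receptor XCR1, coupled to inhibitory G proteins, is carried in mice almost exclusively by type 1 conventional dendritic cells (cDC1), which take up dead cells and present their antigens to CD8 T cells. In several mouse tumour models NK cells draw cDC1 into the tumour through this pair. On GRCm38 (mm10) Xcl1 (ENSMUSG00000026573.7) is a protein-coding gene of 3 exons on the minus strand of chromosome 1, from 164931644 to 164935527. Xcr1 (ENSMUSG00000060509.4) is a protein-coding gene of 2 exons on the minus strand of chromosome 9, from 123852315 to 123862029. Positions and exons are those of the GENCODE annotation.

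Tumours arose in Rosa26-creERT2::Smarcb1 fl/fl mice, in which a tamoxifen-activated Cre under the ubiquitous Rosa26 promoter deletes Smarcb1, which encodes a subunit of SWI/SNF chromatin remodelling complexes. The model crosses a floxed Smarcb1 strain with a Cre line. For every group tamoxifen was given to the mother at 50 mg/kg at day 6.5 post coitum, and mice were followed until neurological signs appeared, so host and tumour cells of all groups share the floxed alleles and the Cre, and no group without the deletion was compared. Live cells negative for 7-AAD, a dye that enters dead cells, were captured with a 10x 3′ kit, and each transcript was counted once by its unique molecular identifier (UMI). The labels give 5 MYC libraries of 4 animals and 2 SHH libraries of 2 animals. MYC replicate 1 was a basal cerebrum tumour at 12 weeks, MYC replicates 2 and 3 were a trigeminal and a lateral cerebellar tumour at 19 weeks, MYC replicate 4 a trigeminal tumour at 21 weeks and MYC replicate 5 a basal cerebrum tumour at 27 weeks. The titles of MYC replicates 2 and 3 share a number, so both were taken as 1 animal. SHH replicates 1 and 2, at 14 and 16 weeks, were tumours of the striatum/subventricular zone. No MYC tumour came from there, and effects of subgroup and of site cannot be told apart.

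After filters 21899 cells remained of 24433 barcodes, with library totals of 2150925 to 111985990 UMIs. MYC replicate 5 held 61.2% of the kept cells. A total of 218 barcode sequences occurred in more than 1 library. Smarcb1 was at 0 to 7.37 CPM (UMIs of the gene scaled per cell type to the same total) in tumour-candidate cells and at 21.8 to 47.2 CPM in haematopoietic cells, and lower in the former in 6 of 6 animals. Which exons the allele removes is not given in the sources used here, so these 3′ counts are no full check of the deletion. Of the markers checked that the gate itself did not use, most but not all fitted the gate names. Klrd1 had a UMI in 67.9% of NK-gated cells against 1.03% of macrophage/microglia-gated cells, and Flt3 in 40.1% of cDC1-gated cells against 0.349%. Tyrobp went the other way (80.5% of NK-gated cells against 98.9%), as did Sirpa (24.2% of cDC2-gated cells against 30.6%). Irf8 (78.5% of cDC1-gated cells against 74.2%) and Klrk1 (12.8% of CD8 T-gated cells against 10.8%) differed little in share. RNA of other cells was present in the lymphocyte gates of some animals. In CD8 T-gated cells the tumour marker genes summed to 10.8 CPM in MYC replicate 4, 688 CPM in MYC replicate 5 and 1181 CPM in SHH replicate 2, and the 3 C1q genes of macrophages to 641 CPM in SHH replicate 1. Intervals given for single levels are 95% exact Poisson intervals that cover counting error only.

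Xcl1 was carried mainly by T and NK lymphocytes. Of 1580 Xcl1 UMIs in kept cells, 1398 (88.5%) lay in the 3010 T and NK lymphocytes. NK-gated cells, CD8 T-gated cells and barcodes that passed both the T and the NK gate together held 1203 of the 1580 (76.1%). By animal this share ran from 61.4% in MYC replicate 5 to 98.3% in MYC replicate 1. Xcl1 UMIs were found in 4 of 6 NK-gated cells in MYC replicate 1, 27 of 66 in MYC replicate 4, 16 of 43 in MYC replicate 5, 19 of 36 in SHH replicate 1 and 3 of 8 in SHH replicate 2. MYC replicates 2 and 3 held no NK-gated cell. Among animals with 10 or more such cells the share with a UMI was 43.6% ± 8.13 (SD, n = 3). With each cell thinned to 1000 UMIs it was 37.0% in MYC replicate 4, 14.0% in MYC replicate 5 and 45.5% in SHH replicate 1, after 12, 0 and 25 shallower cells were left out, so at equal depth MYC replicate 5 was low.

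The level of Xcl1 in NK-gated cells stood at 978 CPM in MYC replicate 4 (interval 806 to 1174), 227 CPM in MYC replicate 5 (179 to 285) and 1360 CPM in SHH replicate 1 (1013 to 1788). MYC replicate 5 was the low animal here too. In that library the NK-gated cells had a median of 5810 UMIs, against 1239 and 938 in the other two animals, and 20 of its 43 NK-gated cells carried at least 2 tumour or 2 C1q genes. The part of this foreign RNA in the lower level was not tested.

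Barcodes that passed both the T and the NK gate carried the most Xcl1. Their level was 1193 CPM in MYC replicate 4, 409 CPM in MYC replicate 5 and 2406 CPM in SHH replicate 1, above the NK-gated level of the same animal in each case. Of these barcodes 59 of 103 had an Xcl1 UMI, with up to 52 UMIs in 1 barcode. The gate does not separate NK T cells, CD8 T cells with NK receptors and doublets of a T and an NK cell, and the difference from the NK gate was not tested.

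CD8 T-gated cells made up the largest number of Xcl1-carrying cells, 140 of 847. Xcl1 stood there at 112 CPM in MYC replicate 1, 19.0 CPM in MYC replicates 2 and 3, 333 CPM in MYC replicate 4, 24.3 CPM in MYC replicate 5, 501 CPM in SHH replicate 1 and 1103 CPM in SHH replicate 2. Xcl1 was concentrated in few cells. In 66 of the 140 cells the gene had a single UMI, whereas 12 cells with 10 or more UMIs held 295 of the 547 UMIs in the gate. In SHH replicate 2 a single CD8 T-gated cell held 75 of the animal's 270 Xcl1 UMIs (27.8%).

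Other lymphocytes had lower levels of Xcl1. CD4 T-gated cells stood at 25.2 CPM in MYC replicate 4, 0 CPM in MYC replicate 5 and 172 CPM in SHH replicate 1. Other T cells, which passed none of the CD8, CD4 or regulatory gates, ranged from 0 to 174 CPM over 6 animals. As a large gate of 1545 cells they still held 79 cells with an Xcl1 UMI and 176 UMIs, 11.1% of all, with 89 of these UMIs in SHH replicate 1 (18.5% of that animal's). Regulatory T cells (Foxp3-positive) held 2 Xcl1 UMIs in 176 cells. ILC2-like cells held 0 UMIs in 111 cells, which allows a share of up to 2.7% of cells with a UMI. Such limits hold for cells with a UMI at these depths, not for cells that express the gene. Plasmacytoid dendritic cells (216 cells), type 2 conventional dendritic cells (cDC2, 128 cells), monocytes (263 cells) and neutrophils (265 cells) also held 0 Xcl1 UMIs, which allows shares of up to 1.39%, 2.34%, 1.14% and 1.13% of cells with a UMI.

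Macrophage/microglia-gated cells were taken as the background of free RNA, which was not measured itself. They ranged from 0 to 5.11 CPM, and 13 of 4873 cells (0.267%) had an Xcl1 UMI at median depths of 2183 to 5762 UMIs. Tumour-candidate cells held 3 Xcl1 UMIs in 4958 cells. Over the gates of lymphocytes the order of mean levels was cells with T and NK markers (1336 ± 1006 CPM, n = 3), NK (855 ± 576, n = 3), CD8 T (349 ± 415, n = 6), CD4 T (65.9 ± 93.1, n = 3) and other T (55.9 ± 67.9, n = 6), all as mean ± SD over animals with 10 or more cells. Neighbours in this order overlap in their spread, and within-animal comparisons were needed to separate them.

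**Figure D1:**
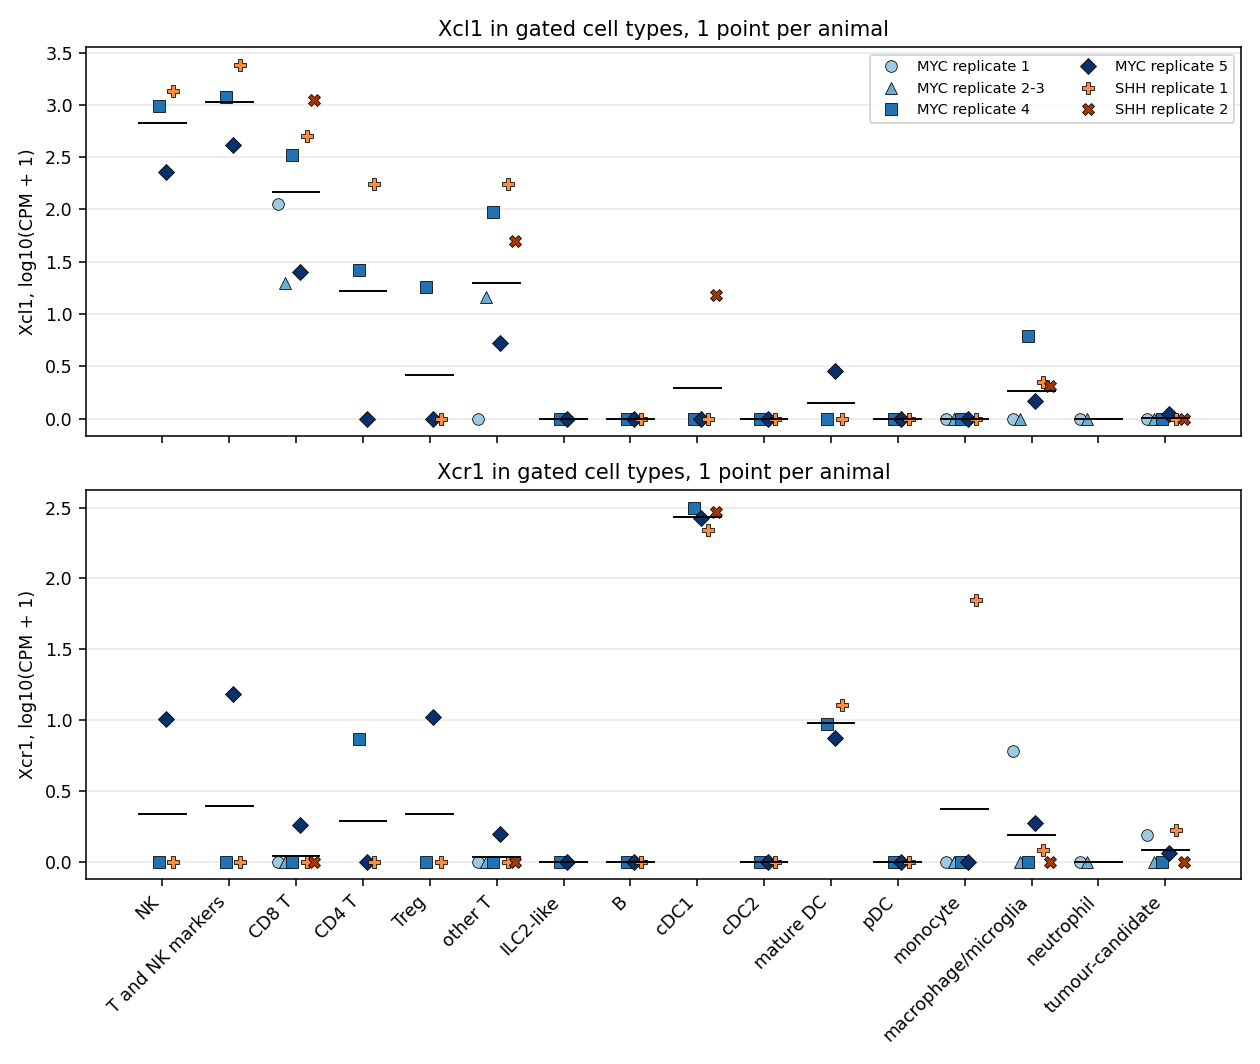
Xcl1 (top) and Xcr1 (bottom) in gated cell types as log10(CPM + 1), with 1 point per animal holding 10 or more cells of the type and a line at the mean of the plotted values. Xcl1 is highest in the NK, T and NK and CD8 T gates, and Xcr1 stands at 219 to 313 CPM in cDC1 and at 0 in cDC2.

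Within animals, NK-gated cells had more Xcl1 than CD8 T-gated cells. TMM-normalised levels were 854 ± 530 CPM against 316 ± 262 CPM (SD, n = 3 animals), a log2 fold change of 1.88 ± 0.30 (SE; adjusted p = 0.00125, edgeR quasi-likelihood test with Benjamini-Hochberg adjustment over 4900 genes), higher in 3 of 3 animals. In this comparison 1.49% of genes were called. Without SHH replicate 1 the log2 fold change was 2.26 ± 0.40 and the adjusted p 0.0944, so the call was lost without that animal.

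CD8 T-gated cells in turn had more Xcl1 than CD4 T-gated cells of the same animals. The levels were 320 ± 264 CPM against 64.1 ± 88.1 CPM, with a log2 fold change of 2.62 ± 0.39 (edgeR adjusted p = 0.00315, higher in 3 of 3 animals), where 1.18% of 4410 genes were called. Xcl1 passed the filter on low counts through the CD8 T-gated cells, as the CD4 T-gated cells alone would not have passed it. Its call thus adds nothing to these levels. Of the 17 Xcl1 UMIs in the CD4 T gate 13 came from SHH replicate 1, and without that animal Xcl1 did not pass the filter on low counts.

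Against macrophage/microglia-gated cells, all T and NK lymphocytes together had 271 ± 284 CPM against 1.57 ± 2.27 CPM in 6 animals. The log2 fold change was 7.02 ± 0.46, higher in 6 of 6 animals. Xcl1 passed the filter on low counts through the lymphocytes alone, so its call adds nothing to these levels. Cells this different gave calls for 30.4% of 8407 genes.

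The cell type that supplied most Xcl1 UMIs differed from tumour to tumour. NK-gated cells held 70.7% of the animal's Xcl1 UMIs in MYC replicate 1 (41 of 58), 22.6% in MYC replicate 4, 28.4% in MYC replicate 5, 10.6% in SHH replicate 1 and 6.67% in SHH replicate 2. CD8 T-gated cells held 10.3%, 24.4%, 11.4%, 47.7% and 58.1% in the same order. With the cells of T and NK markers added to the NK gate, the NK side held 87.9%, 49.9% and 50.0% in MYC replicates 1, 4 and 5, and 24.4% and 38.5% in SHH replicates 1 and 2. In the MYC animals with Xcl1 UMIs above 3 this side was thus at or above 49.9%, and in the SHH animals below it. This order of the animals was seen in the data and was not tested. These cells were few, 0.493% to 5.34% of the kept cells of an animal. MYC replicates 2 and 3 together had only 3 Xcl1 UMIs in 626 cells.

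**Figure D2:**
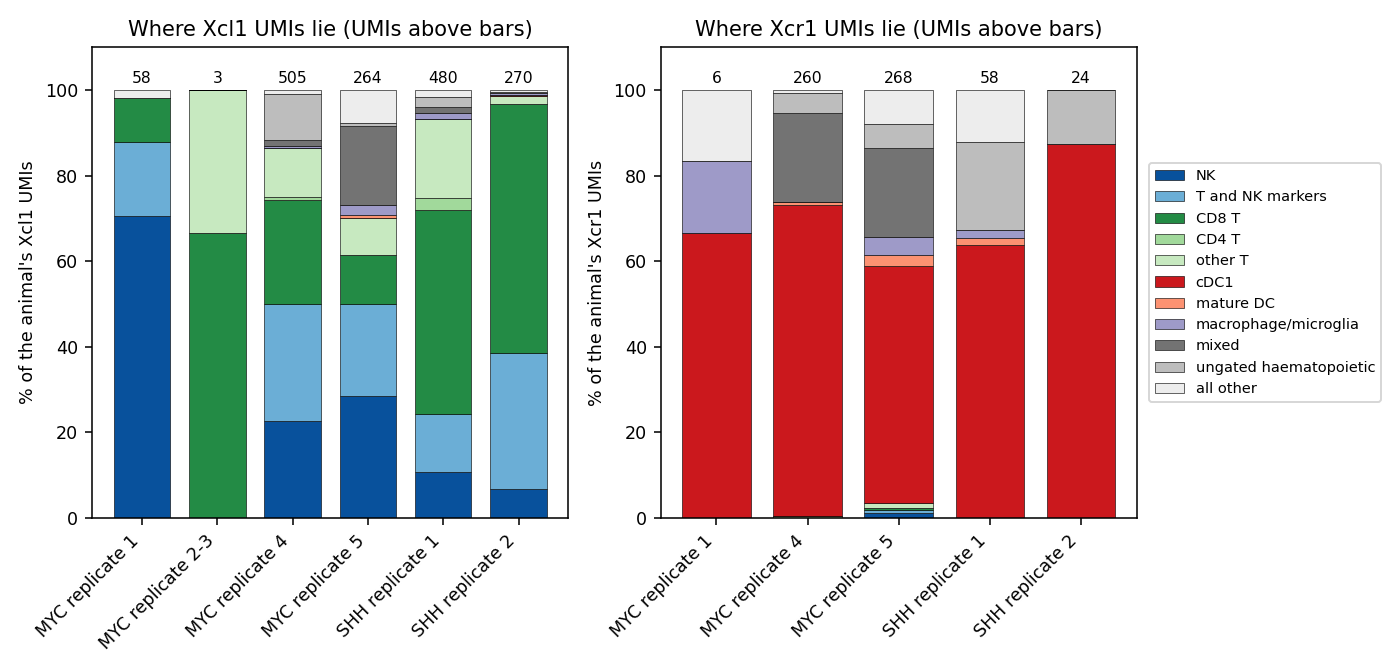
Share of each animal's Xcl1 (left) and Xcr1 (right) UMIs by gated cell type, in percent, with the animal's number of UMIs above each bar; cell types that are not in the key are in all other. CD8 T-gated cells hold 47.7% and 58.1% of Xcl1 UMIs in the SHH animals, and cDC1-gated cells hold 55.6% to 87.5% of Xcr1 UMIs in every animal that has any.

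The labels imply a comparison of the MYC and SHH subgroups. In CD8 T-gated cells the share with an Xcl1 UMI was 7.69% (1 of 13 cells) in MYC replicate 1, 5.26% (2 of 38) in MYC replicates 2 and 3, 11.2% (24 of 215) in MYC replicate 4, 6.15% (12 of 195) in MYC replicate 5, 23.7% (75 of 317) in SHH replicate 1 and 37.7% (26 of 69) in SHH replicate 2. Every MYC animal lay below every SHH animal, in this share and in the level. When each cell was thinned to 1000 UMIs the shares were 0%, 0%, 8.5% and 2.56% in the MYC animals and 21.2% and 26.9% in the SHH animals, after 15 cells of MYC replicate 4 and 53 and 2 cells of SHH replicates 1 and 2 with fewer UMIs were left out. The groups remained apart at equal depth.

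The difference did not pass the test over all genes. CD8 T-gated cells had 140 ± 177 CPM in 4 MYC animals and 833 ± 409 CPM in 2 SHH animals (TMM-normalised), a log2 fold change of -2.51 ± 0.92 (MYC minus SHH; unadjusted p = 0.0211, adjusted p = 0.999, edgeR). Of 3798 genes 5.56% were lower in every MYC than in every SHH animal, and 0% (0 genes) were called. Of these genes 137, Xcl1 among them, had an unadjusted p under 0.05, and DESeq2 called 16 genes higher and 2 lower but not Xcl1 (adjusted p = 0.106). With no filter on low counts, Xcl1 had a log2 fold change of -2.59 and an edgeR adjusted p of 8.61e-05 in a fit that called 112 genes higher and 23 lower, the only alternative of 16 that passed (the highest adjusted p was 0.99997). Without MYC replicate 4, the highest MYC animal, the log2 fold change was -4.24 (adjusted p = 0.166). Without the cell of most Xcl1 UMIs in each animal the log2 fold change was -1.93 (adjusted p = 0.999). The tumour marker genes summed to 280, 47.5, 10.8 and 688 CPM in the MYC animals (replicates 1, 2 and 3, 4 and 5). They summed to 359 and 1181 CPM in SHH replicates 1 and 2. The C1q genes summed to 18.7, 28.5, 16.2 and 210 CPM in the MYC animals and to 641 and 63.2 CPM in the SHH animals. The part of this foreign RNA in the difference was not tested. With barcodes carrying such RNA left out, the log2 fold change was -2.49 (adjusted p = 0.99997).

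**Figure D3:**
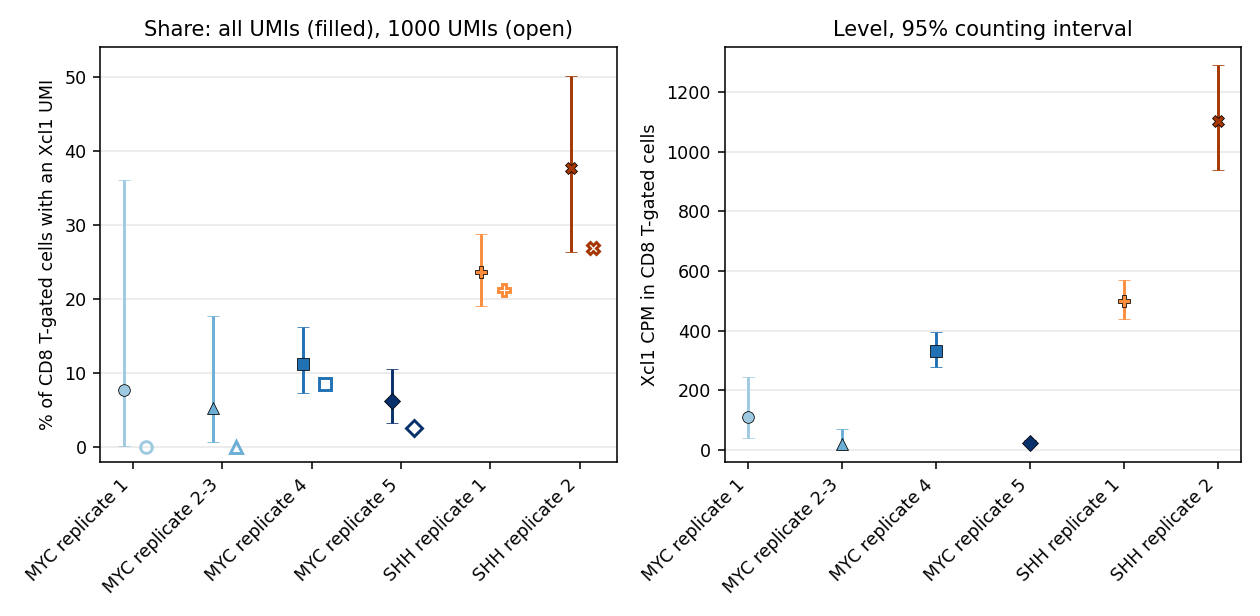
Share of CD8 T-gated cells with an Xcl1 UMI (left, percent; filled points all UMIs with 95% Clopper-Pearson intervals, open points each cell thinned to 1000 UMIs) and Xcl1 level (right, CPM with 95% exact Poisson intervals) per animal. The 4 MYC animals lie at 5.26% to 11.2% and the 2 SHH animals at 23.7% and 37.7%.

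Over all T and NK lymphocytes Xcl1 stood at 169, 16.3, 293 and 23.3 CPM in MYC replicates 1, 2 and 3, 4 and 5, and at 396 and 882 CPM in SHH replicates 1 and 2. Every MYC animal lay below every SHH animal, as for 5.96% of 7328 genes. The log2 fold change was -2.19 ± 0.93 (unadjusted p = 0.0421, adjusted p = 0.999, edgeR), and 0.0136% of genes were called. The 1 gene called was Fez1, named after its value was seen, which was lower in MYC (log2 fold change -7.02 ± 0.71, edgeR adjusted p = 0.0305). That call was lost with barcodes carrying other cells' RNA left out, where 0 genes were called, and with DESeq2, which called 0 lower. The fits without MYC replicate 1, MYC replicates 2 and 3, or MYC replicate 4 also called 0 genes. With stricter gates, and without MYC replicate 5, 1 gene was called, again lower. In NK-gated cells SHH replicate 1 was the only SHH animal with 10 or more cells, and the subgroups were not tested there.

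Summed over all cells of a tumour, Xcl1 stood at 15.9, 0.536, 97.0 and 2.87 CPM in the MYC animals (replicates 1, 2 and 3, 4 and 5) and 52.0 and 47.1 CPM in SHH replicates 1 and 2. In such sums, fewer cells of a type and less RNA per cell cannot be told apart. The MYC values lay on both sides of the SHH values, with a difference of -2.34 in mean log2(CPM + 1) (exact two-sided permutation p = 0.333; 0.833 adjusted over 5 comparisons; the smallest p that 15 splits of 6 animals allow is 0.0667).

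Shares of the Xcl1-carrying cell types among haematopoietic cells did not pass a test between the subgroups either. NK-gated cells made up 1.83% ± 1.69 (SD, n = 4) in MYC and 1.37% ± 0.144 (n = 2) in SHH animals (exact permutation p = 0.867). For CD8 T-gated cells the shares were 7.67% ± 3.02 and 11.9% ± 1.08, lower in each of the 4 MYC animals than in either SHH animal (exact permutation p = 0.133, adjusted 0.667). That order does not hold library by library: in MYC replicate 3 the share was 37.9%, and with the libraries of this animal kept separate the difference turned from -4.23 to 0.70 percentage points.

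Xcr1 was found mainly in cDC1. Of 616 Xcr1 UMIs in kept cells 400 (64.9%) lay in the 307 cDC1-gated cells, and a further 105 in 190 barcodes that passed the cDC1 gate together with a gate of another lineage. UMIs of Xcr1 were counted in 76 of 144 cDC1-gated cells in MYC replicate 4, 55 of 102 in MYC replicate 5, 20 of 44 in SHH replicate 1 and 9 of 16 in SHH replicate 2, and in the only such cell of MYC replicate 1. MYC replicates 2 and 3 had no cDC1-gated cell and no Xcr1 UMI. The share was 52.1% ± 4.66 (SD, n = 4 animals with 10 or more cells), and their counting intervals overlapped.

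The level of Xcr1 in cDC1 was even as well. It stood at 313 CPM in MYC replicate 4 (interval 270 to 361), 267 CPM in MYC replicate 5 (226 to 313), 219 CPM in SHH replicate 1 (154 to 302) and 295 CPM in SHH replicate 2 (182 to 451), or 273 ± 40.8 CPM over animals. The intervals of all 4 animals overlapped. Cells with an Xcr1 UMI carried a median of 2 and at most 10 UMIs. The highest cell held 2.69%, 3.73% and 6.90% of the animal's Xcr1 UMIs in MYC replicates 4 and 5 and SHH replicate 1. In SHH replicate 2, with few UMIs, it held 4 of 24 (16.7%). At 1000 UMIs per cell the shares were 25.7%, 18.6%, 22.7% and 18.8% in the same order, again close together. The share thus moved with depth, and cells without an Xcr1 UMI cannot be read as cells without the receptor.

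Other dendritic cells carried little or no Xcr1. The cDC2-gated cells, which present antigen mainly to CD4 T cells, held 0 Xcr1 UMIs in 128 cells, which allows a share of up to 2.34% of cells with a UMI. Mature dendritic cells (Ccr7-positive, migratory) held 10 UMIs in 305 cells, at 6.42 to 11.7 CPM in 3 animals. Plasmacytoid dendritic cells and B cells held 0 UMIs in 216 and 136 cells, which allows shares of up to 1.39% and 2.21% of cells with a UMI. In monocytes, 1 of 263 cells had Xcr1 UMIs.

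T and NK lymphocytes held 16 Xcr1 UMIs in 3010 cells, 15 of them in MYC replicate 5, the library with the most cells. Macrophage/microglia-gated cells had an Xcr1 UMI in 12 of 4873 cells (0.246%), and tumour-candidate cells in 5 of 4958. Only 1 kept barcode carried UMIs of both genes, of 439 with Xcl1 and 286 with Xcr1.

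Within animals, Xcr1 was set against cDC2 and macrophages. In the 3 animals with 10 or more cells of each type, cDC1 held 309 ± 73.4 CPM and cDC2 0 CPM in every animal, with 375 and 0 UMIs. The gene passed the filter on low counts through cDC1 alone, so its call in this comparison, where 4.43% of 2504 genes were called, adds nothing to these counts. Against 3 counts over the cDC2 of all animals, Xcr1 was at least 39.3-fold higher in cDC1, and at least 21.9-fold higher without MYC replicate 4. Against macrophage/microglia-gated cells the levels were 270 ± 57.8 CPM and 0.268 ± 0.397 CPM, a log2 fold change of 8.60 ± 0.37, higher in 4 of 4 animals. There too Xcr1 passed the filter through cDC1 alone. Its call, in a comparison where 17.6% of 6414 genes were called, adds nothing to these levels.

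Xcr1 did not pass the test between the subgroups. In all conventional and mature dendritic cells together it stood at 189 and 89.6 CPM in MYC replicates 4 and 5 and at 102 and 246 CPM in SHH replicates 1 and 2. The groups overlapped, and the log2 fold change was -0.14 ± 0.58 (adjusted p = 0.9999, edgeR). Its standard error leaves room for changes of more than 1 log2 unit in either direction. In this comparison 0% of 5761 genes were called, 284 had an unadjusted p under 0.05, and DESeq2 called 10. The share of cDC1 among these dendritic cells had the same order over the animals, with 102 of 302 cells in MYC replicate 5, 44 of 112 in SHH replicate 1, 144 of 295 in MYC replicate 4 and 16 of 22 in SHH replicate 2.

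Summed over all cells of a tumour, Xcr1 stood at 1.64, 0, 49.9 and 2.92 CPM in the MYC animals and 6.28 and 4.19 CPM in SHH replicates 1 and 2. The difference in mean log2(CPM + 1) was -0.36 (exact permutation p = 0.867). cDC1-gated cells were 0.556%, 0%, 6.99% and 1.89% of haematopoietic cells in the MYC animals and 1.55% and 2.94% in the SHH animals (exact permutation p = 1.0). MYC replicate 4 was highest in the receptor, in cDC1 and in whole-tumour Xcl1.

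Cells with ligand and with receptor stood in different proportions. There were 131 cells with an Xcl1 UMI and 111 with an Xcr1 UMI in MYC replicate 4 (ratio 1.18), 86 and 130 in MYC replicate 5 (0.662), 171 and 32 in SHH replicate 1 (5.34) and 39 and 10 in SHH replicate 2 (3.9). MYC replicate 1 had 9 and 3 such cells. Both SHH animals had more ligand cells per receptor cell than the 3 MYC animals with both genes. These ratios also move with depth and with how many cells of each type were captured, and the difference was not tested.

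The axis works beside other signals between lymphocytes and dendritic cells, and a list of 36 genes of these was followed: chemokines and cytokines, their receptors, the transcription factors of cDC1 and NK cells, and signalling proteins below chemokine receptors. Between NK- and CD8 T-gated cells 20 of the 36 were tested, 2 were higher in NK cells (Xcl1 and Irf8) and 1 was lower (Cxcr6), where 1.49% of all genes were called. The median log2 fold change of the 20 was 0.41, against -0.03 over all genes. Irf8, a transcription factor, had 295 ± 115 CPM in NK and 44.0 ± 29.2 CPM in CD8 T cells (edgeR adjusted p = 0.00076). Cxcr6, receptor for CXCL16 on tissue-resident T cells, had 28.0 ± 42.9 CPM in NK and 324 ± 233 CPM in CD8 T cells (log2 fold change -3.23 ± 0.50, adjusted p = 0.000877, edgeR). The NK-gated cells alone would not have passed Cxcr6 through the filter on low counts, so its call adds nothing to these levels. Ccl5, a chemokine that also attracts cDC1, stood at 4097 ± 3532 and 5689 ± 5690 CPM and did not pass.

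Between CD8 and CD4 T-gated cells 19 of the list were tested, with Xcl1 and Ccl5 higher in CD8 T cells and 0 lower, where 1.18% of all genes were called. Ccl5 had 5753 ± 5746 against 397 ± 204 CPM (log2 fold change 3.11 ± 0.45, edgeR adjusted p = 0.00253). The list's median log2 fold change was -0.11, against 0.02 over all genes.

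Of the 29 listed genes tested between T and NK lymphocytes and macrophage/microglia-gated cells, 10 were higher and 14 lower in the lymphocytes, where 30.4% of all genes were called (median log2 fold change -0.81, against 0.09 over all genes). The growth factor gene Flt3l, whose product maintains cDC1, was at 60.2 ± 38.1 CPM in lymphocytes and 4.72 ± 1.3 CPM in macrophages (adjusted p = 8.53e-05, edgeR). Ifng, the type 2 interferon gene, was at 40.9 ± 23.8 and 0.161 ± 0.251 CPM. Flt3l and Ifng passed the filter on low counts through the lymphocytes alone, so their calls add nothing to these levels. Among the lower genes was Cxcl16, the ligand of CXCR6, at 56.2 ± 86.2 and 743 ± 278 CPM.

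On the receptor side, 15 listed genes were tested between cDC1 and cDC2, where 4.43% of all genes were called. Irf8, the transcription factor required for cDC1, was higher beside Xcr1 (1641 ± 42.4 against 86.7 ± 32.8 CPM, log2 fold change 4.30 ± 0.24, edgeR adjusted p = 4.94e-06). Ccr1, a receptor for inflammatory chemokines, was lower (43.9 ± 56.4 against 155 ± 61.9 CPM, edgeR adjusted p = 0.0339). The cDC1-gated cells alone would not have passed Ccr1 through the filter on low counts, so its call adds nothing to these levels. The median log2 fold change of the 15 was 0.36, against 0.00 over all genes. Against macrophage/microglia-gated cells 24 were tested, of which 7 were higher in cDC1 and 10 lower, where 17.6% of all genes were called (median log2 fold change -0.14, against -0.04 over all genes). The higher ones held Flt3, receptor for FLT3 ligand, at 114 ± 47.7 against 0.442 ± 0.532 CPM, and the transcription factor genes Irf8 and Batf3, of which Batf3 is also in the gate. Cxcr3, a receptor for CXCL9 and CXCL10, was at 32.7 ± 12.3 CPM in cDC1 and 4.92 ± 3.79 CPM in macrophages (edgeR adjusted p = 0.013). Flt3 and Cxcr3 passed the filter on low counts through cDC1 alone, so their calls add nothing to these levels.

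Between the subgroups 0 of the listed genes were called, of 23 tested in T and NK lymphocytes, 17 in CD8 T-gated cells and 25 in dendritic cells, by edgeR at adjusted p under 0.05. Of all genes 0.0136%, 0% and 0% were called in these comparisons, so 0 calls say nothing particular of the list. Its median log2 fold changes were 0.03, -0.12 and -0.07, against 0.05, 0.03 and 0.06 over all genes.

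**Figure D4:**
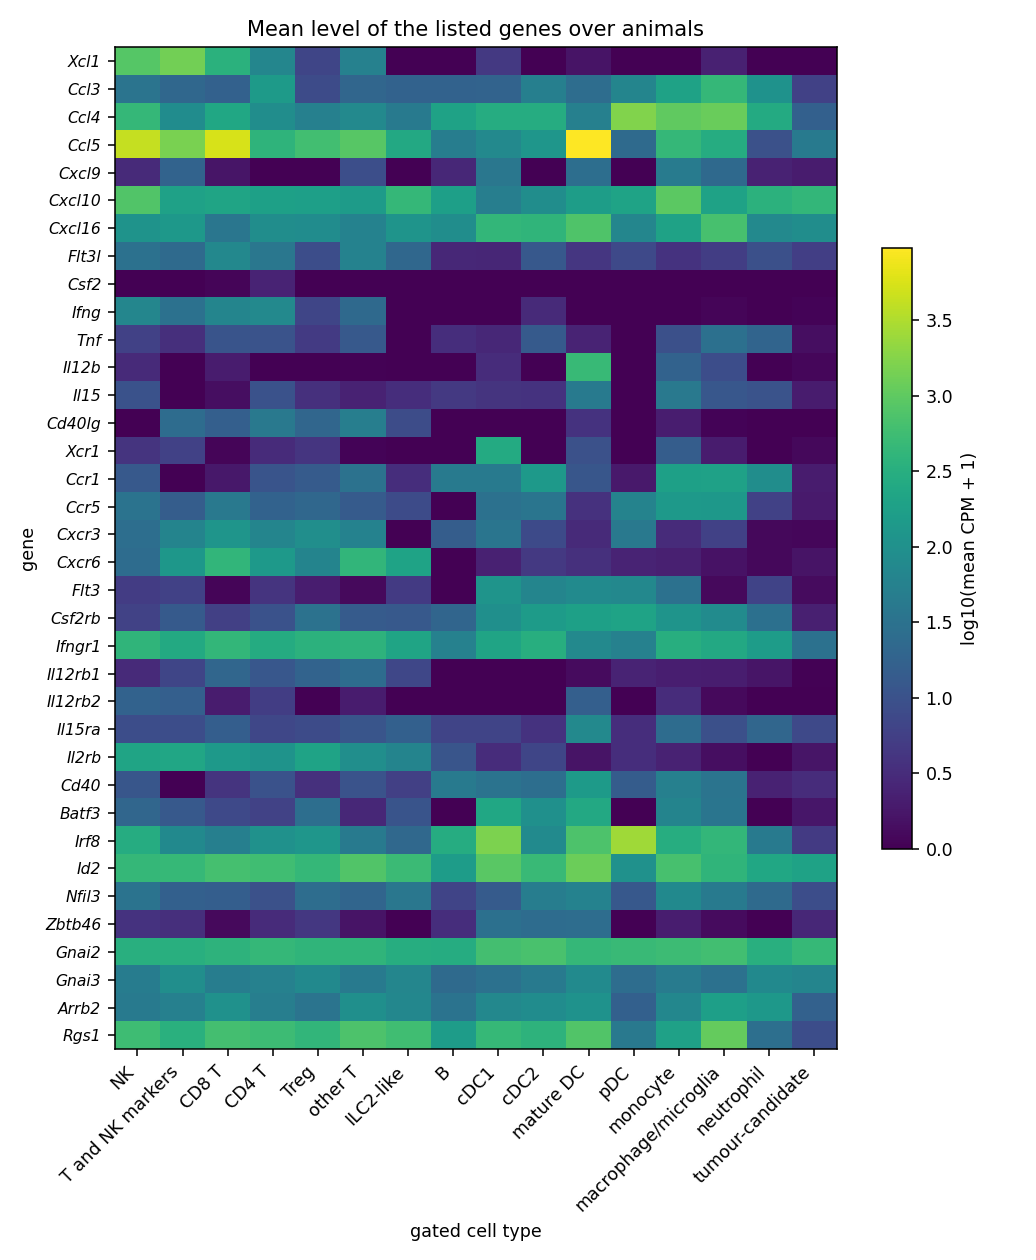
Mean level of the 36 listed genes in gated cell types, as log10(mean CPM + 1) over animals with 10 or more cells of the type. The row of Xcl1 is bright in the NK, T and NK and CD8 T columns, and the row of Xcr1 is brightest in the cDC1 column.

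Genes whose levels were most like those of each member were found over 67 sums of a library and a cell type, from 7 libraries and 19 types, as Pearson correlations of log2(CPM + 1). The sums share libraries and depth, so the values are a description. Most like Xcl1 were Cd160, a receptor of NK and CD8 T cells (r = 0.887), Samd3 (0.838), Ifng (0.820), Prkcq, a kinase of T cell receptor signalling (0.787), and Gzma, encoding granzyme A (0.783), which is a gene of the NK gate. Most like Xcr1 were Clec9a, the receptor by which cDC1 sense dead cells (0.761), Ffar4, a fatty acid receptor (0.730), the nuclease gene Dnase1l3 (0.716), Gcsam (0.701) and Ttc39a (0.661). Clec9a and Gcsam are genes of the cDC1 gate.

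The CD8 T-gated cells with an Xcl1 UMI were compared with the other CD8 T-gated cells of the same animal, in the 4 animals with 10 or more cells of both kinds. Few genes differed. Of 1813 genes 8 (0.441%) were called by edgeR, 1 higher and 7 lower. The higher gene was Ccl1, a chemokine of activated T cells, with 71 UMIs in cells with Xcl1 and 1 UMI in cells without. It was higher in 3 of 4 animals and at 0 in both kinds of cell in MYC replicate 4. The 71 UMIs came from 10 of the 140 cells. Ccl1 passed the filter on low counts through the cells with Xcl1 alone, so its call adds nothing to these counts. With DESeq2, and with every cell thinned to 1000 UMIs, 0 genes were called higher, so the call on Ccl1 was lost in both. In SHH replicate 2 one cell held 34 of 37 Ccl1 UMIs, and in SHH replicate 1 one cell held 19 of 29.

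The lower genes held Gzma and Icos. Gzma had 1 UMI in cells with Xcl1 and 175 UMIs in those without, and was lower in 4 of 4 animals. Without Xcl1 it was at 245, 11.6, 305 and 432 CPM in MYC replicates 4 and 5 and SHH replicates 1 and 2. With Xcl1 it was at 0, 0, 10.1 and 0 CPM. Gzma passed the filter on low counts through the cells without Xcl1 alone, so its call adds nothing to these counts. Gzma is also a gene of the NK gate, so CD8 T cells that carry it with an NK receptor gene stood among the cells with T and NK markers, where Xcl1 was high, and not in this split. Icos, a costimulatory receptor of activated T cells, was at 301, 208, 190 and 208 CPM without and 59.4, 80.1, 90.9 and 63.8 CPM with Xcl1. Its log2 fold change was -1.57 ± 0.33 (edgeR adjusted p = 0.0497), and it was lower in 4 of 4 animals. Icos too passed the filter on low counts through the cells without Xcl1 alone, so its call adds nothing to these levels. With DESeq2, with stricter gates and without SHH replicate 2, only 1 gene each was called lower, so Gzma and Icos were not both called there.

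Serpinb1a, a protease inhibitor gene, and Tmem176a were also lower in 4 of 4 animals (log2 fold changes -3.53 ± 0.75 and -2.15 ± 0.41). Apod, Ptn and Ly6d were lower in 3, 3 and 2 of 4 animals. Serpinb1a, Apod and Ptn held 2, 1 and 4 UMIs in cells with Xcl1. These genes and Tmem176a passed the filter on low counts through the cells without Xcl1, as the cells with Xcl1 alone would not have passed them. Their calls thus add nothing to these levels. Apod, Ptn and Ly6d were at 257, 546 and 646 CPM in tumour-candidate cells, against 149, 236 and 974 CPM over all kept cells. Ly6d was higher in plasmacytoid dendritic cells (1723 CPM), NK-gated cells (1165 CPM) and other T cells (1067 CPM) than in tumour-candidate cells. The 1236 Ly6d UMIs without Xcl1 came largely from MYC replicate 5, where the level was 1305 CPM. The part of other cells' RNA in these calls was not tested. Of 13 tested genes of the axis list 0 were called, of 2 naive or stem-like genes 0, of 6 activation and checkpoint genes 0 and of 5 cytotoxic or tissue-resident genes 1 lower (Gzma). The medians of the last 3 lists were -0.34, 0.35 and -0.87 on the log2 scale, against -0.02 over all genes. The number of calls moved with the animals: leaving out 1 animal gave 3 (without SHH replicate 2) to 16 (without SHH replicate 1), and DESeq2 gave 1.

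**Figure D5:**
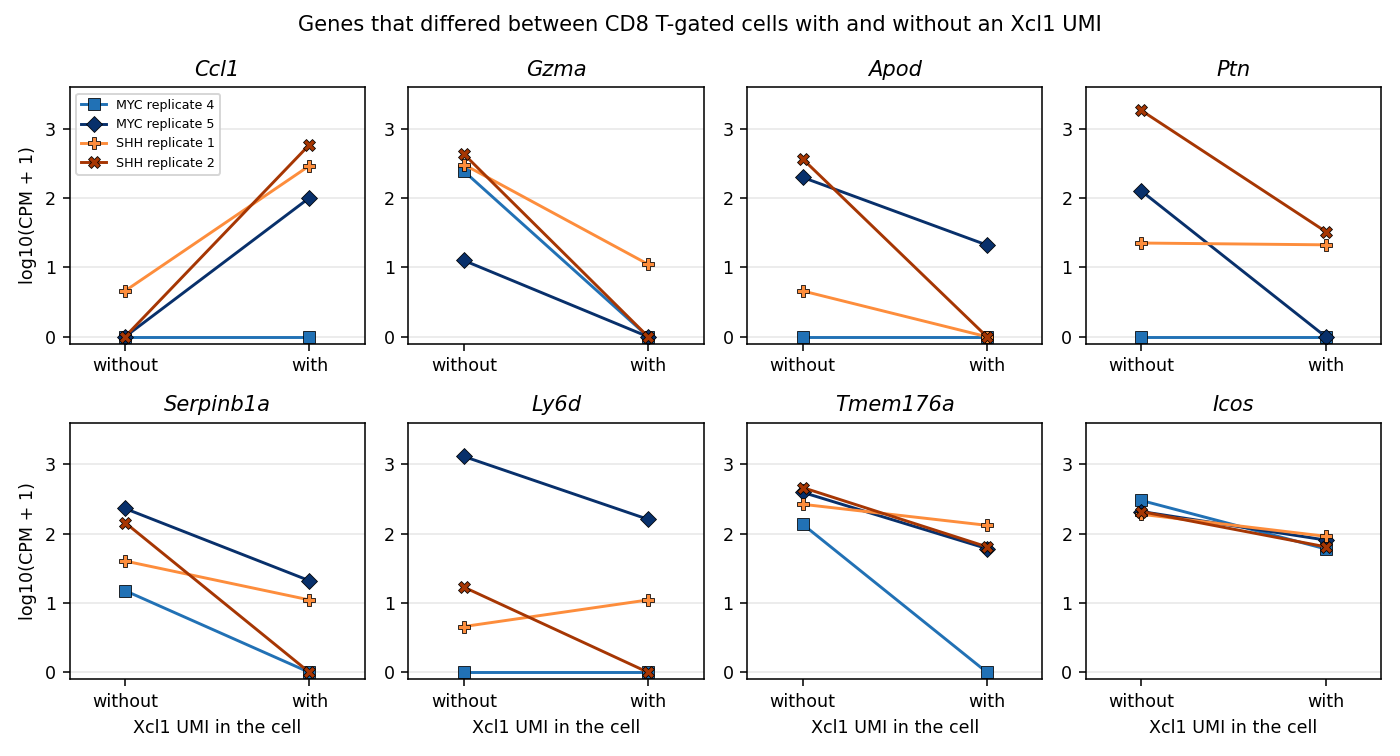
Levels, as log10(CPM + 1), of the 8 genes that differed between CD8 T-gated cells without and with an Xcl1 UMI, with 1 line per animal. Ccl1 is higher with Xcl1 in 3 of 4 animals, and Gzma, Serpinb1a, Tmem176a and Icos are lower in all 4.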

How the data were processed

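The deposited tables hold raw UMI counts per gene and barcode, made by the authors with Cell Ranger 2.0.2 on mm10 per the submitters' processing notes. Genes not listed in a file were set to 0. Barcodes with at least 500 UMIs, 200 genes and at most 20% mitochondrial UMIs were kept, and 2039 putative doublets (Scrublet in scanpy 1.11.5, the top 0.8% per 1000 cells) were removed; MYC replicate 3, with under 200 cells, was not scored. Cells were gated on marker genes, and a barcode passing the gates of 2 lineages was set apart as mixed. Xcl1 and Xcr1 are in no gate. The 33 Leiden clusters (resolution 1.0, made without both genes) served as an alternative to the gates.

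UMI counts were summed per animal and gate (sums of under 10 cells were left out). The test was that of edgeR 4.0.16 (TMM, filterByExpr, quasi-likelihood F test, Benjamini-Hochberg, threshold 0.05), with the animal as a block in comparisons of cell types. DESeq2 1.42.0 was an alternative. For whole-tumour levels and shares an exact permutation test used all 15 splits of the 6 animals. CPM are scaled to all UMIs of the gate. Cells were thinned to 1000 UMIs by random draws without replacement. A count of 0 allows up to 3 counts. The edgeR tests were run on simulated data first.

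Named were both members, up to 12 listed genes by role, the 5 genes most like each member, and, in the CD8 T split, the 8 largest and 8 smallest log2 fold changes called at a mean log2 CPM of 5 or more. Members, lists and tests were chosen with earlier results of these data known. Leaving out barcodes with other cells' RNA or the cell of most Xcl1 UMIs, counting cells with T and NK markers as NK, the sequencing runs as a covariate and the thinned split were alternatives chosen after seeing the data; the closing section gives the alternatives that changed a result. P-values measure the spread between these animals.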

Additional observations from a re-analysis of the deposited data

Results flagged for a closer look

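In MYC replicate 4 whole-tumour Xcl1 stood at 97.0 CPM, far above the next MYC animal at 15.9 CPM. Whole-tumour Xcr1 in the same animal was 49.9 CPM, against 2.92 CPM in the next. Xcl1 in other T cells, those in none of the CD8, CD4 or regulatory gates, was 93.7 CPM there, against 13.5 CPM in the next. These 3 values were marked among 11 groups of 4 MYC animals by the gap of the outermost animal to its neighbour, where chance marks about 1 in 20 groups. All 3 come from 1 animal, a trigeminal tumour in which 2059 of 2229 kept cells were haematopoietic.

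Outside the gates used in the comparisons, 60.5% of the 43 mixed barcodes of MYC replicate 4 that passed the cDC1 gate had an Xcr1 UMI, and they held all 54 Xcr1 UMIs of its mixed barcodes. In 115 such barcodes of MYC replicate 5 the share was 19.1%. In SHH replicates 1 and 2 it was 0 of 20 and 0 of 8. Haematopoietic barcodes of MYC replicate 4 outside every gate had Xcl1 at 135.4 CPM, with 42 of the 55 UMIs in 1 barcode and 32.5 CPM without it.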

How the results depend on the processing

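Over 20 results, 178 alternative values were computed, of which 152 kept their direction and side of the threshold (or moved by less than the spread) and 26 did not. Leaving out 1 animal in turn, the log2 fold change of Xcl1 between NK- and CD8 T-gated cells ranged from 1.40 to 2.26 (adjusted p over all alternatives 2.49e-10 to 0.0944). That of Xcr1 between subgroups in dendritic cells ranged from -0.84 to 0.48, and was 0.016 with barcodes carrying other cells' RNA left out. For Xcl1 between subgroups in CD8 T-gated cells it was -2.59 with no filter on low counts, the only alternative of 16 that passed. The 8 genes of the CD8 T split became 5 with RLE factors, 1 with DESeq2, 49 with no filter, 2 with stricter gates, 4 with 20 or more cells per sum, 2 at 1000 UMIs per cell and 3 to 16 without 1 animal. Between subgroups, the whole-tumour difference of Xcr1 was 0.19 with a pseudocount of 10 and -1.50 to 0.39 without 1 animal. The difference in NK-gated share was -0.032 to 1.08 percentage points without 1 animal. With libraries of 1 animal separate, that in CD8 T-gated share was 0.70 and that in cDC1-gated share -0.35, the latter -1.43 to 0.91 without 1 animal. The exact tests of 6 animals cannot go below 0.0667, so that none passed says nothing of stability, and the cause of each turn was not tested. At 1000 UMIs per cell the mean share with a UMI was 32.1% for Xcl1 in NK-gated cells and 21.4% for Xcr1 in cDC1. With sequencing runs (1 or 2 per library) in the model, Xcl1 between subgroups in CD8 T-gated cells was -1.997 (edgeR unadjusted p = 0.0525), and with cells of T and NK markers counted as NK the NK against CD8 T difference was 2.12. With clusters, named by their leading gate, in place of gates the mean level was 2292 CPM for Xcl1 in the NK cluster. There 114 of 215 cells were NK-gated, and SHH replicate 2 stood at 4934 CPM in 12 cells. For Xcr1 the mean was 182 CPM in the cDC1 cluster (129 to 242 CPM by animal), where 279 of 739 cells were cDC1-gated. Counts of all called genes (higher and lower) moved by over 1.5 times, among others, for NK- against CD8 T-gated cells, from 40 and 33 to 10 and 10 without SHH replicate 1 and 65 and 105 with no filter, for CD8 against CD4 T-gated cells from 22 and 30 to 7 and 13 with DESeq2 and 118 and 52 with no filter, for cDC1 against cDC2 from 46 and 65 to 16 and 21 without MYC replicate 4 and 146 and 93 with no filter, for CD8 T-gated cells between subgroups from 0 to 112 and 23 with no filter, and for dendritic cells between subgroups from 0 to 339 and 204 without MYC replicate 4. With DESeq2, 34 genes were higher in MYC T and NK lymphocytes and 0 lower. No fit without SHH replicate 1 was possible for Xcl1 between CD8 and CD4 T-gated cells, where it fell below the filter. Xcl1 between subgroups in NK-gated cells was not run, with 1 SHH animal. No paired analysis was possible because subgroups share no animal, and replicate numbers follow the order of deposit. At sums of 10 to 50 cells, depth limits shares to wide intervals.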
